A study of Mus musculus with 6 samples.

Results

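The miRNA genes numbered Mir6896 to Mir7119 form a series of mouse hairpins that lie, for the most part, at the ends of introns. They were taken by name, as every row of the count table whose Ensembl identifier carries a GENCODE M21 gene name with a number in that range. The range was chosen with earlier results of these data known. The rule found 181 of the 1973 rows of the table. They were followed in the small RNA of exosomes released by HN9.10e cells, an immortalized line of mouse embryonic hippocampal neurons that the labels give as wild type and grown with fetal bovine serum. Exosomes of untreated cells gave 3 control libraries, and exosomes of cells kept with 100 nmol/L ceramide (the short-chain, cell-permeable C6 form, per the methods of the study) for 48 h gave 3 ceramide libraries. The libraries held 800810 to 2760015 counts, the ceramide replicates 2 and 3 being the deepest. The comparison asks whether ceramide changes which miRNAs the exosomes carry. The study calls the replicates biological, but the labels do not tie them to separate cultures, so the p-values measure the spread between these libraries, which may in part be technical. The column names give lane number 1 for control 1 and ceramide 1, 4 for the other control libraries and 2 for the other ceramide libraries, and they do not say whether equal numbers mean the same run.

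Most miRNAs are cut from their primary transcript by the nuclease Drosha and then from the hairpin by Dicer. A mirtron skips the first cut: the spliceosome releases a short intron, the lariat is opened by the debranching enzyme, and the intron folds into a hairpin that Dicer can cut. In a tailed mirtron only 1 end of the hairpin is a splice site, and the extra intron sequence on the other side has to be trimmed away first. Since introns start with GU and end with AG, these letters mark the ends of a mirtron, and the 3p arm carries the pyrimidine-rich stretch in front of the 3′ splice site. Each row of the table counts a whole hairpin, so the 5p and the 3p miRNA of a hairpin were not told apart.

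The sequences below belong to the 6 rows with the most counts, to Mir6903, the row called without the replicate block, and to Mir7023, which shares a seed with 2 of them. They are shown because their ends show how the hairpins sit in their introns. All are mature miRNAs from RefSeq (GRCm38.p6), with the seed, bases 2 to 8, in capitals. Mir6970, the third most abundant row, is named only.
Mir6923-5p: gUGAGGGCaggaggauuggggugu
Mir7070-5p: gUGAGGGGagcugaggcagga
Mir7068-5p: gUGAGGCUcaguauggggugg
Mir7018-5p: gUGAGCAGacagggaguggugggg
Mir6963-5p: gGUGGGAUggauggcagaaccugg
Mir6903-5p: uUGGGAAAagcaguacuuacca
Mir7070-3p: cAGGCUCUccuucccuccag
Mir7068-3p: uCACCCUGgacugacucucag
Mir7018-3p: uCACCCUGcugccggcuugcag
Mir7023-3p: uCACCCUGucugcgccccucag
Mir6963-3p: uGCCUCUUgccuccaucccacag

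The 5p arms of Mir6923, Mir7070, Mir7068 and Mir7018 all began with GU, and all the 3p arms listed ended with AG. The 3p arms of Mir7068, Mir7018 and Mir7023 shared the seed CACCCUG, and the rows of these 3 hairpins held 1523 counts together, of which Mir7023 held 8. The seed of Mir7070-5p, UGAGGGG, was shared with Mir6927-5p. The 318 matched arms of the series held 292 seeds, of which 21 occurred in more than 1 arm, in 47 arms together, and no seed occurred in more than 3 arms.

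The hairpin sequences show the relation to the intron directly. In Mir6923 and Mir7068 the capitals mark the first and last dinucleotide of the intron, which are the ends of the hairpin itself. In Mir6963 only the AG at the end is a splice site, and the first 48 bases of the intron lie before the hairpin. In Mir6903 the capitals mark the last 6 bases, which lie in an exon of Atp2b4, just after the AG of the intron.
Mir6923: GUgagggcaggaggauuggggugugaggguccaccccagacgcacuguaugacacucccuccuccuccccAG
Mir7068: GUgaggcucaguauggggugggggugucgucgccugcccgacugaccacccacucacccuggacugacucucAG
Mir6963: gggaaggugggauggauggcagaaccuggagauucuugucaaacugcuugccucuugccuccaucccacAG
Mir6903: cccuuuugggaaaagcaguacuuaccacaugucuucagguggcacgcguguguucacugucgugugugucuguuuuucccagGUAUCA

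Across the series, 167 of the 181 hairpins (92.3%) ended at the last base of an annotated intron of a gene on the same strand, against 17 of the 1713 other named rows (0.992%). In 14 members (7.73%) the hairpin was a whole intron, and in 153 (84.5%) it ended at the 3′ splice site while the intron went on in the 5′ direction. Of the remaining 14, 6 ran over the 3′ splice site into the exon, 4 began at the 5′ splice site, 2 ran over the 5′ splice site, 1 lay inside an intron and 1 had no host gene. The members sat in 176 host genes, and no other row of the table overlapped any of them.

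The RefSeq sequences carried the marks of this position. Of 158 matched 3p miRNAs, 124 (78.5%) ended with AG, against 48 of 448 (10.7%) in the other rows named Mir. Among the 5p miRNAs, GU stood at the start of 10 of 12 (83.3%) whole-intron members and of 1 of 135 (0.741%) members that end at the 3′ splice site. The hairpins were short, with a median length of 66 bases (52 to 137) against 85 in other Mir rows, and their median GC content was 57.8% against 50.6%. The 5p arms were rich in G (median 45.5%, against 27.3% in other Mir rows), and the 3p arms in C and U (median 71.4%, against 52.4%).

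The exosomes held many of these hairpins, each at a low level. At least 1 count was found for 163 of the 181 members (90.1%), while 18 had none, 114 had 1 to 49 counts and 49 had 50 or more. Detection was as wide as in the earliest numbered miRNAs, Mir1 to Mir999, where 413 of 465 rows (88.8%) had a count, but the median row held 251 counts there against 17 here. In the other number ranges a count was found for 61 of 82 rows (74.4%) for numbers 1000 to 2999, 112 of 222 (50.5%) for 3000 to 6895 and 67 of 92 (72.8%) for 7120 and above. Of the members, 94 had a count in all 6 libraries and 7 in a single library. Together they held 21015 counts, 0.219% of all counts. The limit that a count of 0 allows, 3 counts, equals 1.09 CPM (counts of the row per 1e6 counts of the library) in the deepest library and 3.75 CPM in the shallowest, for counting error only.

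The number of members found was 128, 133 and 139 in control replicates 1, 2 and 3, and 120, 155 and 145 in ceramide replicates 1, 2 and 3. With every library thinned to the 800810 counts of the smallest, the expected numbers were 119, 112 and 122 in the control and 120.0, 118 and 122 in the ceramide libraries. At equal depth the means were therefore 118 ± 5.16 and 120 ± 2.09 (SD, n = 3), a difference smaller than the spread of the control libraries.

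The summed level of the members was 1126, 1155 and 2584 CPM in control replicates 1, 2 and 3. In ceramide replicates 1, 2 and 3 it was 1332, 1921 and 3635 CPM. Replicate 3 was the highest library of both groups, at 2.29 times replicate 1 in the control and 2.73 times in the ceramide group, and the groups overlapped. The means were 1621 ± 833 CPM and 2296 ± 1196 CPM (SD, n = 3), a ratio of 1.42 that lies within the spread between libraries. Within each replicate number the ceramide library was the higher, by 1.18 times for replicate 1, the pair with the same lane number, 1.66 times for replicate 2 and 1.41 times for replicate 3. No p is given for a sum over the members. In such bulk libraries a higher share of a miRNA cannot be told apart from a lower share of the others.

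**Figure D1:**
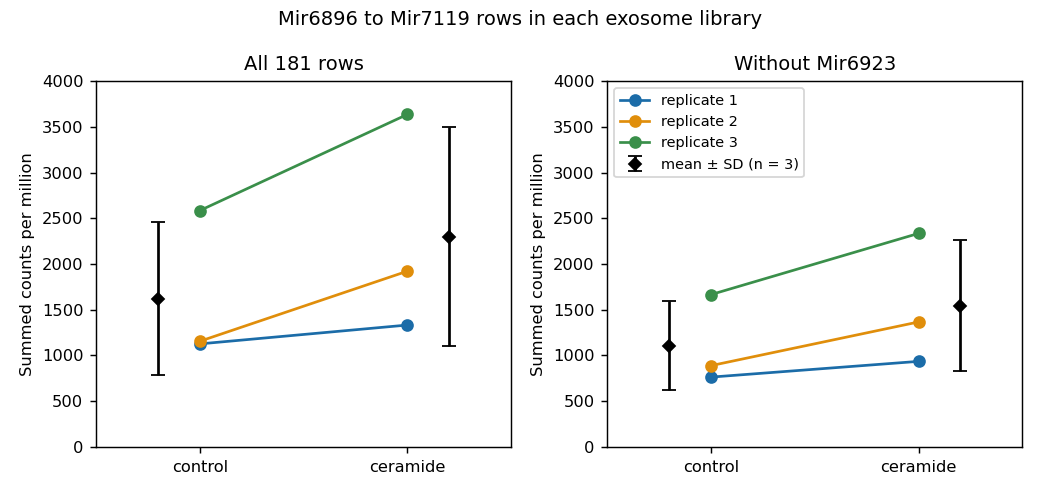
Summed CPM of the Mir6896 to Mir7119 rows, in control and ceramide libraries, with all 181 rows at left and without Mir6923 at right. Coloured points are libraries, lines join libraries with the same replicate number, and black diamonds with bars are the mean ± SD of 3 libraries; all 3 lines go up, and replicate 3 is the highest in both groups.

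A few rows carried most of this sum. Mir6923 alone held 6839 of the 21015 counts (32.5%) and ranked 119 among all rows of the table. The 6 rows with the most counts held 12218 (58.1%), and the 49 rows with 50 or more held 91.8%. Without Mir6923 the sum was 763, 889 and 1665 CPM in the control replicates and 935, 1366 and 2334 CPM in the ceramide replicates, and its ratio was 1.40.

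Hairpins that are whole introns stood out among the abundant rows. The 14 of them held 13255 counts (63.1%), with a median of 336.5 counts and a range of 3 to 6839. The 153 members that end at the 3′ splice site of a longer intron held 7107 counts (33.8%), with a median of 15 and a range of 0 to 493. Per base of hairpin this was 11.1 counts in the first and 0.691 in the second group. Mir6923 is a whole intron, and without it the other 13 still held 6416 counts (45.3% of those that remain). Some of these counts could come from exons. At least Mir6970, Mir7068, Mir6958 and Mir6981, with 1594, 846, 315 and 184 counts, also lie within an exon of another annotated transcript. The same holds for Mir6945 among the rows that end at the 3′ splice site. Of the 10 rows with the most counts, 7 were whole introns.

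**Figure D2:**
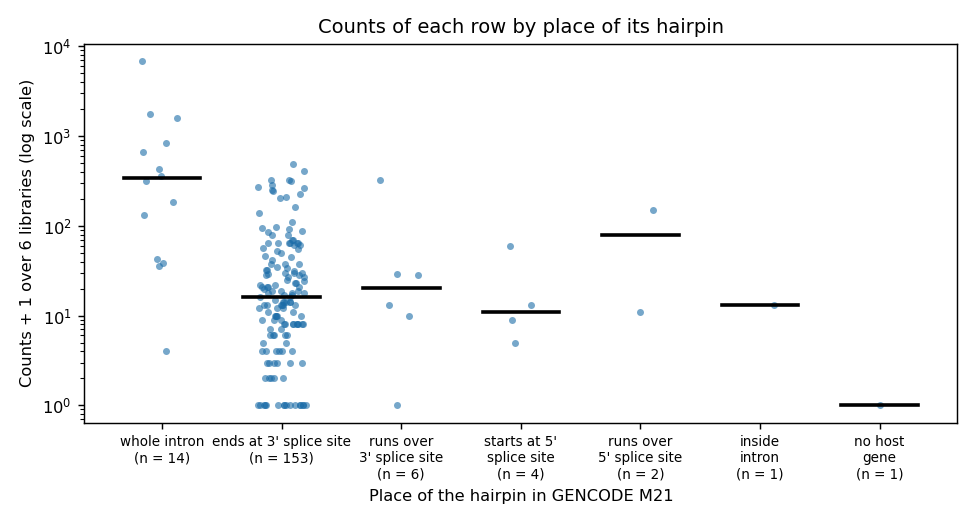
Counts of each of the 181 rows over the 6 libraries, plus 1, on a log scale, by the place of the hairpin in its host gene. Each point is a row and the bars are medians; the 14 whole-intron rows have a median of 336.5 counts and the 153 rows that end at the 3′ splice site one of 15.

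The members that end at the 3′ splice site were grouped by the length of intron in front of the hairpin, with no test. The median was 17.5 counts in the 32 members with 1 to 50 bases in front, 18.0 in the 49 with 51 to 500 bases and 12.5 in the 72 with over 500 bases. In both classes of hairpin, replicate 3 was the highest of each group. The whole-intron rows summed to 683, 647 and 1740 CPM in the control and 820, 1154 and 2366 CPM in the ceramide replicates. The rows ending at the 3′ splice site summed to 414, 469 and 783 CPM and to 472, 699 and 1156 CPM. The ratios of the means, 1.41 and 1.40, were alike in size.

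The most abundant members came from introns of genes with unrelated roles. Mir6923 (ENSMUSG00000098855, chr11:67099804-67099875, plus strand, GRCm38) is the whole 72-base intron of Myh3, the embryonic myosin heavy chain of skeletal muscle. Its level, in CPM scaled by TMM factors as are all single-row levels here, was 352, 264 and 883 in control replicates 1, 2 and 3, and 413, 580 and 1302 in the ceramide replicates. The ceramide library was above the control library of the same number each time, but the groups overlapped, since control 3 was above ceramide 1 and 2.

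Mir7070 (chr8:85062086-85062171, plus strand) fills an 86-base intron of Fbxw9, which encodes an F-box protein. It had 69.9, 98.1 and 232 CPM in the control and 118, 171 and 302 CPM in the ceramide replicates. Mir6970 (chr17:34845101-34845167, minus strand) fills a 67-base intron of Skiv2l, an RNA helicase that feeds RNA to the exosome nuclease complex (a protein complex unrelated to the vesicles). Its levels were 76.8, 73.2 and 219 CPM in the control and 100.1, 146 and 278 CPM in the ceramide replicates. In both rows control 3 lay above ceramide 1 and 2.

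Mir7068 (chr8:72470016-72470089, minus strand) fills a 74-base intron of Cherp. It had 53.9, 44.8 and 101 CPM in the control and 59.8, 87.1 and 134 CPM in the ceramide replicates. Mir7018 (chr4:137538286-137538370, plus strand) fills an 85-base intron of Hspg2, the gene of perlecan, a heparan sulfate proteoglycan of basement membranes. Its levels were 27.9, 49.8 and 69.5 CPM in the control and 63.7, 73.5 and 99.2 CPM in the ceramide replicates, so that only control 3 overlapped the ceramide group. Mir7068 and Mir6970 also lie within an exon of another annotated transcript on the same strand, so a read could come from that transcript.

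Mir6963 (chr15:103350455-103350525, minus strand), the most abundant tailed member, ends at the 3′ splice site of a 119-base intron of Itga5, the alpha 5 chain of the fibronectin receptor. It had 16.0, 35.6 and 38.1 CPM in the control and 33.8, 65.5 and 74.9 CPM in the ceramide replicates. Control 2 and 3 lay above ceramide 1, and ceramide 2 and 3 above all controls. Mir7088 (chr9:108081498-108081583, plus strand) fills an 86-base intron of Mst1, which encodes macrophage-stimulating protein, and had 18.0, 31.3 and 55.6 CPM in the control and 24.7, 31.8 and 78.3 CPM in the ceramide replicates. Mir6944 (chr13:55477681-55477776, minus strand) fills a 96-base intron of Dbn1, the gene of drebrin, an actin-binding protein of dendritic spines. It was the steadiest of the 10 most abundant rows, at 27.9, 36.3 and 32.9 CPM in the control and 31.2, 41.3 and 43.0 CPM in the ceramide replicates, with means of 32.4 ± 4.19 and 38.5 ± 6.38 CPM (SD, n = 3).

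**Figure D3:**
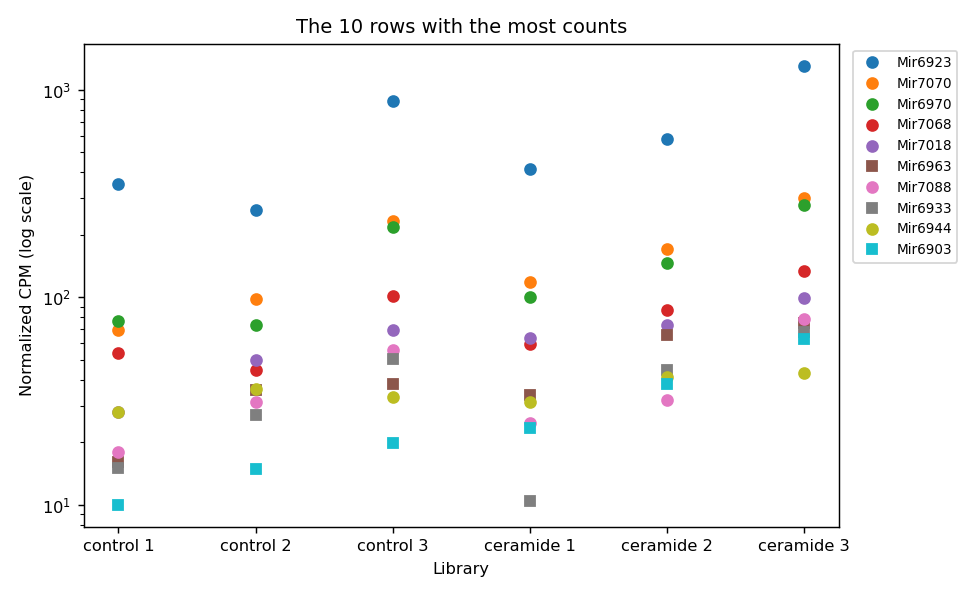
Normalized CPM, on a log scale, of the 10 rows with the most counts in each of the 6 libraries. Circles are hairpins that are whole introns and squares are others; Mir6923 is the highest row in every library and the 3 libraries of Mir6903 with ceramide lie above its 3 control libraries.

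Ceramide was compared with control by edgeR's quasi-likelihood test on the whole table, and 35 members passed the filter on low counts. A row was called where its p, adjusted by Benjamini-Hochberg over the 418 rows tested, did not exceed 0.05 and its log2 fold change was 0.6 or more in size. Of the 35, 1 was called, Mir6903, which rose. This is 2.86% of the members tested, against 3.11% of all rows called higher and 11.5% called in either direction. The call rate of the series was thus close to the share of rows called higher and below the share called in either direction. DESeq2, run on every row with a count, called the same 1 of 163 members, against 0.945% of the 1058 rows called higher. With upper-quartile factors in edgeR, Mir6945 and Mir6910 were called too, 3 of 35 against 5.5% of all rows called higher. An unadjusted p under 0.05 by edgeR was found for 4 of the 35, all higher. Of the 418 rows, 61 were higher at this p, and 153 reached it in either direction.

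The direction was less even than the calls. The fitted level was higher with ceramide in 34 of the 35 members, with a median log2 fold change of 0.62 and a range of -0.06 to 1.50. Over all rows tested, 206 of 418 were higher and the median was -0.01. The filter favours rows that are high in a group. Of the 35, 24 reached its minimum in all 3 control libraries, and of these 23 were higher, with a median of 0.62. How far the filter shaped the direction was not tested. The members did not vary independently: replicate 3 was the highest library of both groups in 30 of the 35 (85.7%), against 114 of 418 rows (27.3%). Without the filter, edgeR called none of the 163 detected members, against 5 of the 1058 rows with a count called higher. An unadjusted p under 0.05 by edgeR was found for 14 of the 163, all higher. Of the 1058 rows, 77 were higher at this p. In that fit 124 of the 163 members were higher, with a median of 0.50 against 0.03 for all 1058 rows. Single libraries moved this value: the median of the tested members was 0.16 without ceramide 3 and 1.02 without control 3, and with the lane number as a term, which leaves the weight on the replicate 1 pair and takes equal numbers as a batch, it was 0.38.

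Mir6903 (ENSMUSG00000098606, chr1:133726558-133726645, minus strand) was the called member. Its hairpin ends 6 bases inside an exon of Atp2b4, a plasma-membrane calcium pump, and the intron before it is 1159 bases long. The row held 10, 21 and 27 counts in control replicates 1, 2 and 3, and 18, 101 and 147 in the ceramide replicates. Normalized, these were 9.98, 14.9 and 19.8 CPM in the control and 23.4, 38.3 and 62.6 CPM in the ceramide libraries. Every ceramide library lay above every control library, as for 14.1% of all rows tested. The means were 14.9 ± 4.89 and 41.4 ± 19.8 CPM (SD, n = 3), and the log2 fold change was 1.50 ± 0.39 (SE; adjusted p = 0.0416, edgeR), the largest of the 418 rows. DESeq2 gave an adjusted p of 0.00833. The study, which used DESeq2 on these libraries, also lists this miRNA as raised, so the call is not an independent observation. The call was near its threshold: the adjusted p by edgeR was 0.0658 without ceramide 3, 0.0987 without ceramide 2, 0.0708 without control 3, 0.117 without control 2 and 0.144 without control 1, while the call was kept without ceramide 1.

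Only 1 other tested member had groups that did not overlap, which makes 2 of 35 (5.71%), against 14.1% of all rows tested with ceramide above control. Mir6910 (chr10:79862587-79862652, plus strand) ends at the 3′ splice site of a 111-base intron of Ptbp1, a repressor of neuronal exons in splicing. It had 11.0, 11.4 and 16.8 CPM in the control and 16.9, 25.0 and 49.8 CPM in the ceramide replicates, the highest control library lying just under the lowest ceramide library. The log2 fold change was 1.28 ± 0.42 (SE), and it was not called (adjusted p = 0.0721, edgeR). In Mir6945, at the 3′ end of an intron of Pdlim7 and also within an exon of another annotated transcript, the levels were 13.0, 15.6 and 24.9 CPM in the control and 20.8, 39.8 and 55.8 CPM in the ceramide replicates, with a log2 fold change of 1.16 ± 0.38 (SE) and the same adjusted p by edgeR. No tested member had all its ceramide libraries below its control libraries, as 25.1% of all rows had.

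Libraries with the same replicate number deviated together from their group means, so the fit was repeated with the replicate number as a block. With the block, 13 of the 35 members were called, all of them higher, which is 37.1% of the members tested against 9.09% of all rows called higher. Mir6903 was called in both fits. The other 12 were Mir6923, Mir7070, Mir7018, Mir6963, Mir6945, Mir6958, Mir7081, Mir6951, Mir6910, Mir6907, Mir7082 and Mir7060. The fold changes hardly moved, with a median of 0.60, while the standard errors fell. All 3 pairs were higher with ceramide in 12 of the 13, the exception being Mir6907. These rows were called by a fit to the same pairs, so their agreement was largely set by that choice. Over all tested members it held for 23 of 35 (65.7%), and over all tested rows for 146 of 418 (34.9%). Without pair 2 no member and no row was called with the block. All 33 members then tested were higher, with a median log2 fold change of 0.62 against 0.04 for all 405 rows tested. These members did not vary independently. Without pair 1, 12 of the 51 members then tested were called, all higher, against 31 of 466 rows called higher. Without pair 3 it was 13 of 29 members, all higher, against 42 of 398 rows called higher. Only the libraries of pair 1 shared a lane number. In pairs 2 and 3 the control and ceramide libraries differed in it, so within these pairs the block does not tell ceramide apart from lane number. With a lane-number term instead of the block, 0 of the 35 members were called, against 8 of the 418 rows called higher. That term leaves the ceramide comparison to the replicate 1 pair, so its calls cannot be set against those of the block.

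**Figure D4:**
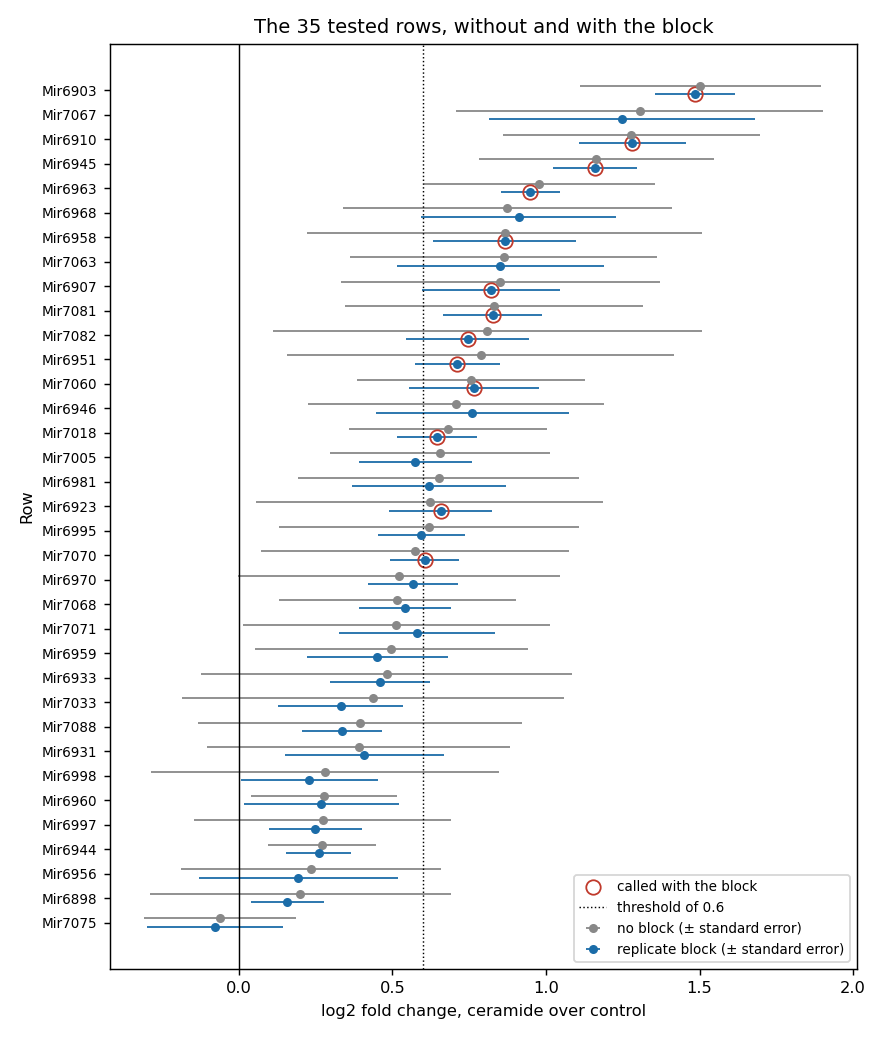
Log2 fold change of ceramide over control, with its standard error, for the 35 tested rows, without the replicate block in grey and with it in blue. Red rings mark the 13 rows called with the block and the dotted line the threshold of 0.6; the points of the 2 fits lie close together and the blue bars are shorter, with Mir7075 the only row below 0 under this scaling (0.016 with DESeq2 size factors and 0.013 with upper-quartile factors).

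The members called with the block covered both kinds of hairpin, 5 of the 10 tested whole introns and 6 of the 23 tested rows that end at the 3′ splice site, besides Mir6903 and Mir7082, which run past a splice site. Mir6923 changed by 0.66 ± 0.17 on the log2 scale (SE; adjusted p = 0.0234, edgeR with the block) against 0.62 ± 0.56 (adjusted p = 0.434) without it. Mir7070 gave 0.60 ± 0.11 (adjusted p = 0.00867, edgeR with the block) against 0.57 ± 0.50 (adjusted p = 0.416) without it, just past the fold threshold. For Mir7018 the blocked value was 0.64 ± 0.13 (adjusted p = 0.0108, edgeR with the block) against 0.68 ± 0.32 (adjusted p = 0.174). In Mir6963 the blocked log2 fold change was 0.95 ± 0.10 (adjusted p = 0.0011, edgeR with the block) against 0.98 ± 0.37 (adjusted p = 0.109). Mir6970 and Mir7068 had adjusted p-values of 0.0242 and 0.0292 by edgeR with the block but stayed under the fold threshold, at 0.57 and 0.54.

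In the less abundant called rows, replicate 3 was again the highest of each group. Mir7081 ends an intron of Dnmt1, the maintenance DNA methyltransferase, and had 14.0, 14.9 and 27.8 CPM in the control and 14.3, 27.6 and 54.5 CPM in the ceramide replicates. Its pair 1 was nearly level, and pairs 2 and 3 held the difference. Mir6951 ends an intron of Azin1, the antizyme inhibitor that raises ornithine decarboxylase activity, and had 3.99, 20.6 and 23.4 CPM in the control and 7.80, 28.8 and 43.0 CPM in the ceramide replicates. Mir6958 fills an intron of Dennd6b and also lies within an exon of another annotated transcript. It had 12.0, 9.24 and 39.5 CPM in the control and 14.3, 31.4 and 60.5 CPM in the ceramide replicates, with control 3 above ceramide 1 and 2. For Mir7082, Mir7060 and Mir6907 the blocked log2 fold changes were 0.74, 0.77 and 0.82, and the adjusted p by edgeR with the block ran from 0.0273 to 0.0289.

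Other tested members were not called in either fit. Mir7063, in Ap2a2, a subunit of the clathrin adaptor, was level in 5 libraries (16.0, 19.2 and 19.0 CPM in the control, 18.2 and 18.2 CPM in ceramide 1 and 2) and stood at 58.8 CPM in ceramide 3. Mir7075, in Terf2, a telomere-binding protein, was the only tested member with a lower fitted level, at 9.72 ± 0.86 CPM in the control and 8.90 ± 2.51 CPM with ceramide (SD, n = 3), and its log2 fold change of -0.06 turned to 0.016 with DESeq2 size factors and 0.013 with upper-quartile factors in edgeR.

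Of the 49 rows with 50 or more counts, 14 did not pass the filter. They held 51 to 96 counts each. Among them was Mir6996, in an intron of Notch1, the receptor that keeps neural progenitors undifferentiated. It had 2.00, 2.13 and 5.12 CPM in the control and 6.50, 8.33 and 10.2 CPM in the ceramide replicates. Control 1 and 2 were near the limit that a count of 0 allows there, 3.09 and 2.15 CPM. Every ceramide library lay above every control library, as for 84 of the 1058 rows with a count (7.94%) and 10 of the 163 detected members (6.13%). Mir7039, in Smurf1, a ubiquitin ligase, ran the other way, at 6.99, 6.40 and 5.12 CPM in the control and 3.90, 5.68 and 4.26 CPM in the ceramide replicates, with 1 overlapping pair of libraries. The rows just inside the limit were Mir6932 with 56, Mir6990 with 54 and Mir7039 with 51 counts, and those just outside were Mir6988 with 49, Mir6913 with 45 and Mir7012 with 44.

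Mirtrons outside the number range gave a side view. Mir877, a whole intron of Abcf1, held 11894 counts, more than any member, at 654, 584 and 1453 CPM in the control and 816, 1127 and 2056 CPM in the ceramide replicates. Mir1981, a whole intron of Marc2, had 382, 391.8 and 773 CPM in the control and 490, 624 and 1100 CPM in the ceramide replicates. In both, as in Mir6923, replicate 3 was the highest of each group. Neither was called in either fit, with log2 fold changes of 0.57 ± 0.45 and 0.52 ± 0.38 (SE). With the block the value of Mir877 was 0.596, just under the threshold of 0.6, with an adjusted p of 0.0126 by edgeR. For Mir1981 it was 0.52 ± 0.09 (SE), with an adjusted p of 0.00609 by edgeR. Mir702 and Mir1224, the other mirtrons compared, had 0.21 ± 0.31 and 0.29 ± 0.46. Of the hairpins that skip Drosha without being mirtrons, Mir320 stood at 0.09 ± 0.16, and Mir484 at -0.62 ± 0.20 (adjusted p = 0.0721, edgeR), which with the block was called lower (adjusted p = 0.021). Of these 6 rows, then, 0 of 6 were called by edgeR without the block and 1 of 6, lower, with it.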

How the data were processed

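The authors sequenced exosomal small RNA prepared with a QIAseq kit, removed adapters with cutadapt 1.15, aligned reads to GRCm38 with STAR 2.5.3a and deposited raw counts per GENCODE miRNA gene. The GENCODE release, the strand setting, reads with several alignments and the use of molecular identifiers are not given in the sources used here, so the true counting error is unknown.

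Names and positions came from GENCODE M21, which matched 1894 of the 1973 rows, and sequences from RefSeq. A splice site within 3 bases of a hairpin end counted as shared. Counts were tested with edgeR 4.0.16 in R 4.3.3 (quasi-likelihood test, TMM factors, filterByExpr with a minimum of 10 counts, Benjamini-Hochberg adjustment over the 418 rows left, all 6 libraries, no covariate). Standard errors come from the F statistic. The thresholds are those of the study, whose tool, DESeq2 (here 1.42.0), was an alternative. The other alternatives were other scalings, no filter, joining of identical rows, a lane-number term, a replicate block and leaving out libraries. The members and lists were chosen with earlier results of these data known. The single rows described were those with 50 or more counts, Mir6903, called rows and 6 other miRNAs made without Drosha.

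Replicate numbers were checked by correlating, over rows, deviations from group means. Libraries with the same number, taken from the labels, gave 0.59, 0.43 and 0.75, and those with different numbers -0.59 to 0.10. The numbers were therefore taken to pair the libraries, though neither the labels nor the study state a paired design. The check used the same counts as the fit. Deviations from a group mean cancel out in each row, so the negative values follow in part from the positive ones. On simulated counts for this comparison with 200 of 418 rows changed by 1.5 on the log2 scale, the test called 194 of them and 3 unchanged rows. The simulated rows all had the same spread and no effect shared by replicates. This result therefore checks the code and gives no error rate for the members, which did not vary independently.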

Additional observations from a re-analysis of the deposited data

How the results depend on the processing

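Against 48 called rows in all and 1 among the members, the replicate block gave 87 and 13, a lane-number term 29 and 0, and leaving out 1 library 28 to 55 and 0 to 5. Among the members, upper-quartile factors gave 3, library size alone 0 and no filter 0. Added after seeing the data, the block gave 82 rows and 17 members with DESeq2 size factors, 83 and 17 with upper-quartile factors, 89 and 10 with library size alone, and 78 and 12, 0 and 0, and 87 and 13 without replicates 1, 2 and 3. Calls higher were 13 of 48, and became 21 of 47 with DESeq2 size factors in edgeR, 23 of 51 with upper-quartile factors and 4 of 46 with library size alone. Mir6903 kept its direction but lost its call in 8 of 14 settings, with adjusted p from 0.052 to 0.376 by edgeR. The log2 difference of the summed member CPM, 0.49, ran from 0.10 to 0.88 when 1 library was left out. Over 35 tested members and 14 settings, 441 of 487 log2 fold changes kept direction and call and 20 reversed. With the lane-number term the reversed values were -0.52 for Mir6933 and Mir6931, -0.35 for Mir7071 and Mir6959, -0.20 for Mir6981, -0.42 for Mir6907 and -0.034 for Mir6946. The others came from leaving out a library, the negative value without ceramide 3: Mir7088 (-0.29 to 0.89), Mir6898 (-0.18 to 0.74, also -0.09 without control 1), Mir6997 (-0.10 to 0.83), Mir6931 (-0.0057 to 0.97), Mir7033 (-0.28 to 0.99), Mir6998 (-0.26 to 1.1502, also -0.04 without control 2) and Mir6956 (-0.12 to 0.60). Mir7075, at -0.06, gave -0.27 to 0.033 without 1 library, 0.016 with DESeq2 size factors and 0.013 with upper-quartile factors. The causes were not tested. Members under 50 counts were too shallow for most comparisons.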
